A study of Homo sapiens with 3 samples.

Results

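WDR74 and the small nucleolar RNA (snoRNA) host genes SNHG1, GAS5 and SNHG12 were examined in SC1, a human lymphoma cell line labelled as diffuse large B-cell lymphoma. Every interval of either peak list that overlapped a gene body extended by 5 kb on each side was taken, on the genome build hg19. This gave 12 of 233861 intervals, 6 of 215598 CREBBP peaks and 6 of 18263 H3K27ac regions. The loci were chosen from the CREBBP list, because a peak at WDR74 has among the largest fold enrichments in it, so the values below are a description and carry no test. The study made 1 chromatin immunoprecipitation sequencing (ChIP-seq) library with an antibody to CREBBP, 1 with an antibody that recognises H3K27ac, the acetylated form of lysine 27 in histone H3, and 1 input with no antibody, which was not analysed here. All 3 came from SC1 cells grown in RPMI1640 medium with serum and antibiotics. The intervals' names contain DMSO and rep2, and the labels mention neither. No group had replicates, so no value has a replicate error, and the labelled cell type was not checked against marker genes.

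CREBBP is a lysine acetyltransferase, a coactivator that many transcription factors bring to promoters and enhancers, and H3K27ac is a mark of active promoters and enhancers that it can deposit. snoRNAs guide the chemical modification of ribosomal RNA. In vertebrates most of them are cut from the introns of host genes. In hosts such as SNHG1 and GAS5 the snoRNAs are a known product, and the spliced host RNA encodes no known protein. WDR74 encodes a WD-repeat protein that acts in the assembly of the large ribosomal subunit. U2 small nuclear RNA, a part of the spliceosome, recognises the branch point of introns and is made by RNA polymerase II from short, compact genes.

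In the RefSeq gene table, made for the assembly GRCh38.p14, the snRNA gene RNU2-2, a U2 gene, lies inside the span of WDR74 and shares the end at which that span starts to be transcribed. Both WDR74 promoter entries of the RefSeq promoter table lie further inside the span, as does that of SNHG12 in its own span. The SNHG1 span held 9 snoRNA genes, among them SNORD22 and SNORD25 to SNORD31. GAS5 held 11, among them SNORD44, SNORD47 and SNORD74. SNHG12 held 4, which were SNORD99, SNORA61, SNORA44 and SNORA16A. WDR74 held none. SNHG1 is the next gene above WDR74 in that table and is followed by SLC3A2, an amino acid transporter subunit. GAS5 overlaps ZBTB37 and GAS5-AS1, and SNHG12 overlaps TRNAU1AP. On hg19 the gene bodies were chr11:62599811-62609281 for WDR74, chr11:62619460-62623386 for SNHG1, chr1:173833038-173838020 for GAS5 and chr1:28905050-28909495 for SNHG12. All 4 genes are on the minus strand in RefSeq, so the gene start is taken here as the higher end of the body. The bodies of WDR74 and SNHG1 are 10.2 kb apart.

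Which starts SC1 cells use was not examined, and the promoter entries printed here for the 4 genes differ in sequence. They are from RefSeq on GRCh38.p14, minus strand, read 5′ to 3′, and the capitals mark matches to any of 10 short motifs named below. SNHG1, GAS5 and SNHG12 are given from 250 bases before the start to 50 after it. WDR74 is given as the 250 bases before the start that lies farther upstream, followed by a stretch from 33 to 4 bases before its other start, which lies downstream.
SNHG1: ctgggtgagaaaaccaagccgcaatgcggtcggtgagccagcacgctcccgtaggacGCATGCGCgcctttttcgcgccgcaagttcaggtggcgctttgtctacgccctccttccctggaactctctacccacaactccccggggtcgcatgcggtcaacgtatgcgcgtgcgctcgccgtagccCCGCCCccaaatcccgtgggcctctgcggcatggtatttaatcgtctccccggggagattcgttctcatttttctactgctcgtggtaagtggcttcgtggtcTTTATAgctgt
GAS5: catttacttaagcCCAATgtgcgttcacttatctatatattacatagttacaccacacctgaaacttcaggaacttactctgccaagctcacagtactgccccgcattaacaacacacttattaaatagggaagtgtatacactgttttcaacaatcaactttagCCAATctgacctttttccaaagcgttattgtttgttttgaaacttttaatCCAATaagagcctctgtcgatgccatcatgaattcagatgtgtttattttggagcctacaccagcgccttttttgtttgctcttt
SNHG12: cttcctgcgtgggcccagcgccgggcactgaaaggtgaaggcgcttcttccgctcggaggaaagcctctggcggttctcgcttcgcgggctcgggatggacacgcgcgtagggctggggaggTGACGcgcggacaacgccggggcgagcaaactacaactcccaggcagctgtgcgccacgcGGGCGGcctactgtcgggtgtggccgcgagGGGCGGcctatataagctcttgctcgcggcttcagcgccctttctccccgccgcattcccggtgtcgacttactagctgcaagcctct
WDR74, upstream start: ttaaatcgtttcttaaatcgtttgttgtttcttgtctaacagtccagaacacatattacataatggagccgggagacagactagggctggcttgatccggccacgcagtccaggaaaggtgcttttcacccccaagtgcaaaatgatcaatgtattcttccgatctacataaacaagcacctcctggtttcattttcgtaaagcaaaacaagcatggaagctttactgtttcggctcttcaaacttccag
WDR74, other start: ggTGACGcacacgctgcgCCGGAAGTgtga

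The peak lists are on hg19 and these sequences on GRCh38.p14, so the bases under a peak were not read and no peak is assigned to a motif. GC content was 67.3% in the SNHG12 promoter, 60.0% in that of SNHG1, 53.3% and 46.7% in the WDR74 entries and 37.7% in that of GAS5, against a median of 58.7% over 35093 RefSeq promoters. CpG dinucleotides numbered 35 at SNHG12, 30 at SNHG1, 17 and 15 at WDR74 and 5 at GAS5, against a median of 14. Against all promoters the SNHG12 and SNHG1 entries were therefore rich in CpG and the GAS5 entry was poor in it. Over 29 promoter entries of 27 other genes that host snoRNAs, the medians were 61.7% GC and 27 CpG, near the SNHG1 values.

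Motifs were searched on both strands, and a match is a description of the letters only. The full cyclic AMP response element TGACGTCA, the classical site of the factor CREB after which CREBBP is named, was in none of the 4 promoters and in 1.85% of all promoters. Its shorter form TGACG, which is contained in the full element, was in WDR74 and SNHG12 and in 24.5% of all promoters. It began 31 bases before the other, downstream WDR74 start and 128 bases before that of SNHG12. The ETS motif CCGGAAGT was in WDR74 alone, 15 bases before that downstream start, and in 4.14% of all promoters. The core GCGCATGC of the NRF1 motif was in SNHG1 alone, 193 bases before its start, and in 3.05% of all. The SP1 motif GGGCGG was in SNHG1 and SNHG12 (44.9% of all), CCAAT was in GAS5 at 3 places (34.6%), and TATAAA was in SNHG1 alone, on the opposite strand and after the start (11.5%). The E-box CACGTG (7.26% of all), the YY1 motif AAGATGGC (2.89%) and the octamer ATGCAAAT (1.77%) were in none of the 4. Of 30 other genes that host snoRNAs, 27 had a promoter entry. In these, GGGCGG was in 18, TGACG in 11, CCAAT in 11, GCGCATGC in 4, AAGATGGC in 3, TATAAA in 3, CACGTG in 2 and CCGGAAGT in 1, and neither TGACGTCA nor ATGCAAAT was in any.

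Many snoRNA hosts and ribosomal protein genes begin with a run of pyrimidines, the terminal oligopyrimidine tract. In the first 10 bases from the RefSeq start, SNHG12 had 10 pyrimidines, in CCTTTCTCCC, and SNHG1 had 9, in CTCATTTTTC. GAS5 had 5, and the WDR74 entries had 8 and 6. These counts depend on the annotated start, and which start SC1 cells use was not examined. The 5 at GAS5 thus does not show that its RNA lacks such a tract. At least 8 were found in 9.95% of all promoters and in 11 of the 27 other host genes.

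Fold enrichment is the authors' ratio of ChIP signal to the background that the peak caller expected, at the summit for a CREBBP peak and taken as a mean over an H3K27ac region, so the 2 lists are not on the same scale. Neither list states how deeply its library was sequenced. For CREBBP, the fold and the p-value together give the number of fragments at the summit and the background there, both in fragments, and these solved numbers are inferences.

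WDR74 carried the strongest CREBBP peak of the 4 loci, at the end of the body taken as its gene start. In RefSeq that end of the span is shared with RNU2-2, and both WDR74 promoter entries lie further inside. WDR74 start thus names this end below, and not a known start of the WDR74 mRNA. The peak was assigned to neither gene. The peak lay at chr11:62608390-62609467, was 1078 bp wide and had its summit at position 62609188, 93 bp inside the gene body. Its fold was 10.4, the 5th largest of the list, and it had 144 fragments (exact Poisson 95% interval 121 to 170, which covers counting error only) over a background of 12.9. Its −log10 q was 90.8. This is the peak for which the locus was picked. U2 genes exist in near-identical copies, and how reads that match several copies were placed is not given in the sources used here, so the height of this peak is uncertain in that respect.

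A second CREBBP peak lay further into WDR74, at chr11:62606875-62607171, with its summit 2190 bp from that of the first. Its fold was 2.05, with 20 fragments (12.2 to 30.9) over a background of 9.24 and a q of 0.614. Both peaks lay in the same H3K27ac region, chr11:62606130-62610304, which was 4175 bp wide and covered the gene start. That region had an H3K27ac fold of 5.05, near the list's median of 4.92, while its strongest CREBBP peak ranked 8th by fragments among the 8940 H3K27ac regions that held a CREBBP peak. Its width was among the widest 7.12% of regions.

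At its other end WDR74 met an H3K27ac region with no CREBBP peak. This region, chr11:62598305-62600148, was 1844 bp wide and had a fold of 13.1 and a −log10 q of 239, which put it in the top 7.93% by fold. Within the WDR74 window the higher H3K27ac fold and the CREBBP peaks were thus in different regions, and the nearer edge of this region lay 9133 bp from the gene start. In RefSeq, STX5-DT overlaps the WDR74 span and TEX54 is its neighbour on that side.

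**Figure D1:**
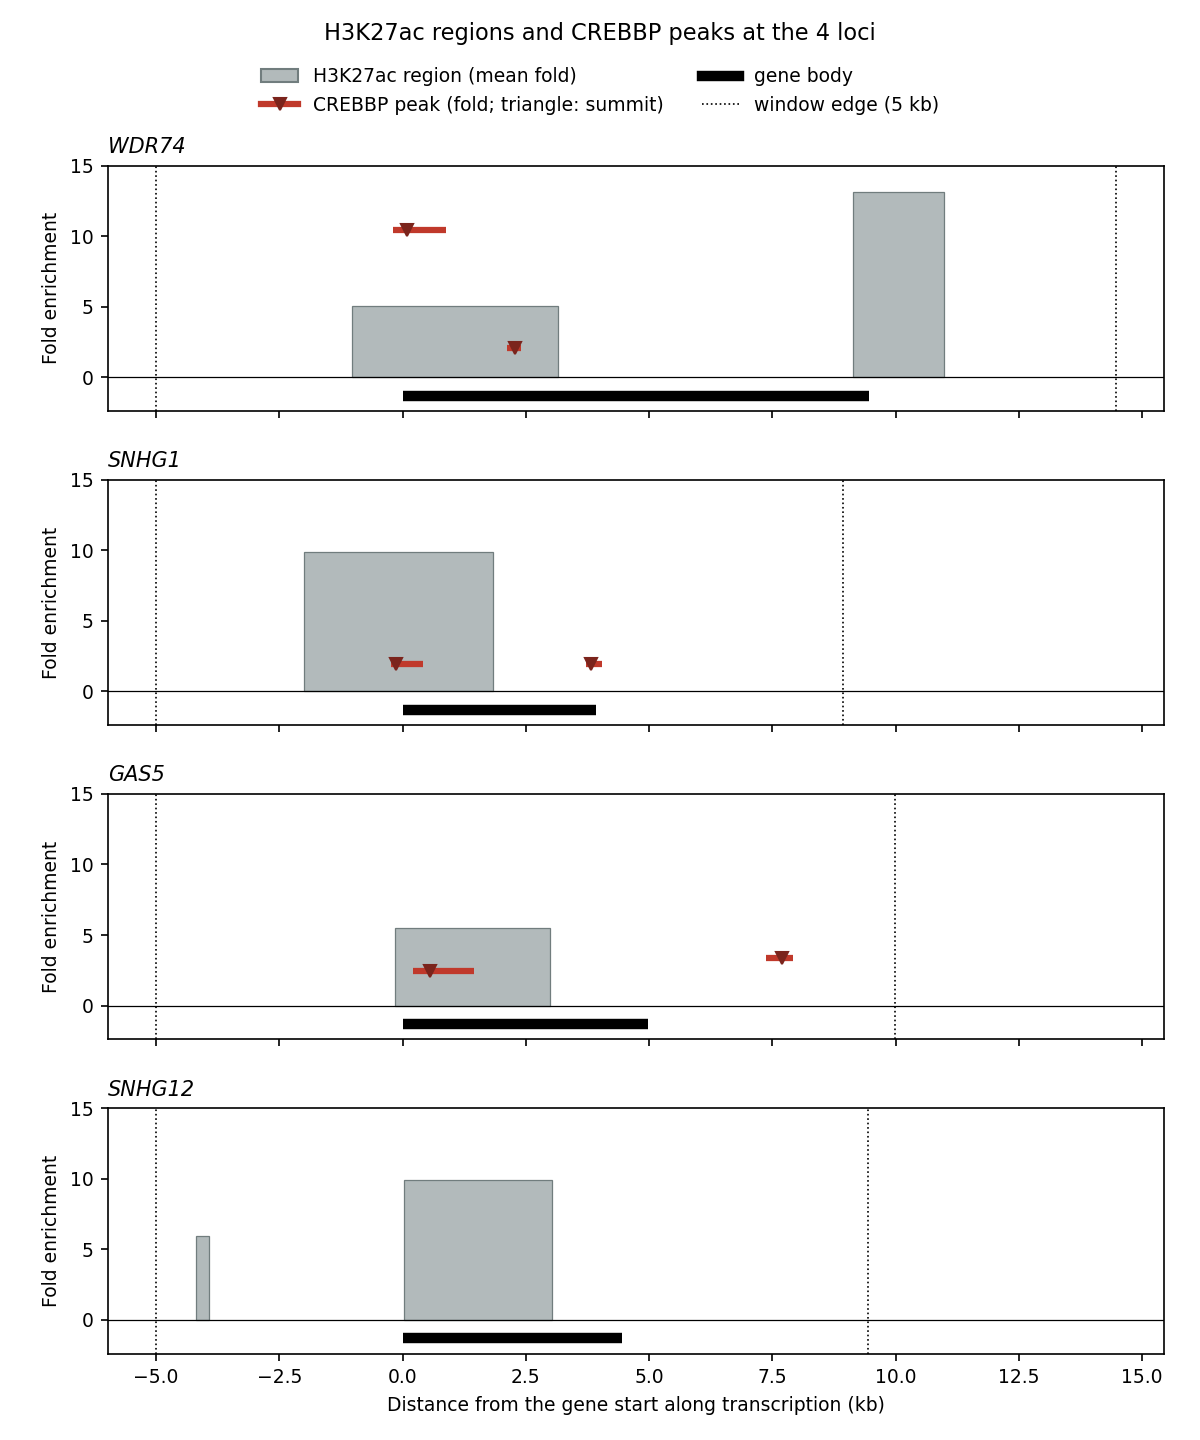
Fold enrichment of H3K27ac regions (grey bars, mean over the region) and CREBBP peaks (red lines with a triangle at the summit) at WDR74, SNHG1, GAS5 and SNHG12, against the distance from the gene start in kb along transcription; black bars are gene bodies and dotted lines the window edges 5 kb beyond them. The CREBBP peak with a fold of 10.4 lies at the start of WDR74, where the H3K27ac fold is 5.05, and SNHG12 has H3K27ac regions and no CREBBP peak.

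GAS5 had the next most CREBBP fragments. Its peak at chr1:173836578-173837814 was 1237 bp wide, among the widest 0.574% of the list, and its summit lay 552 bp inside the gene. In RefSeq, GAS5-AS1 and ZBTB37 overlap the GAS5 span, and the peak was assigned to none of these genes. Below, GAS5 start names a position only. The fold was 2.48, with 29 fragments (19.4 to 41.6) over a background of 11.1 and a q of 0.0143. Its H3K27ac region, chr1:173835031-173838178, spanned 3148 bp at a fold of 5.50. The region covered the gene start and reached only 158 bp upstream of it. A further CREBBP peak, chr1:173830092-173830654, lay beyond the far end of the gene, 7.69 kb from its start and outside any H3K27ac region. It had a fold of 3.34 but only 10 fragments (4.80 to 18.4) over a background of 2.29, and a q of 0.110. The peak with the larger fold at GAS5 thus had fewer fragments and the weaker q, on a background that was lower.

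SNHG1 had a CREBBP peak at its start that did not reach a q of 0.05. This peak, chr11:62622976-62623628, had its summit 129 bp upstream of the gene start, a fold of 1.92, 24 fragments (15.4 to 35.7), a background of 12.01 and a q of 0.614. The other SNHG1 peak, chr11:62619332-62619668, covered the far end of the gene, 3.83 kb from its start, with a fold of 1.95, 10 fragments (4.80 to 18.4), a background of 4.63 and a q of 1. The H3K27ac region at the start, chr11:62621552-62625383, was 3832 bp wide with a fold of 9.85 and a −log10 q of 128, and extended 1997 bp upstream, on the side of SLC3A2. At the starts of SNHG1 and WDR74, neighbours on chromosome 11, the H3K27ac fold was 9.85 and 5.05 and the CREBBP fragments were 24 and 144. The region at the far end of WDR74, with a fold of 13.1, was above that of SNHG1.

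SNHG12 had no CREBBP peak in its window. The nearest, chr1:28954686-28955026, was 40.2 kb beyond the window, with 7 fragments and a fold of 2.61. The gene nevertheless carried H3K27ac. A region of 2994 bp, chr1:28906470-28909463, ended 32 bp inside the end of the body taken as the gene start, lay over the gene body and had a fold of 9.90 and a −log10 q of 71.6. In RefSeq the SNHG12 promoter entry lies inside the span and not at that end, so this distance is to the end of the body and not to a known transcription start. Another, chr1:28913410-28913681, was 272 bp wide, lay 3915 bp upstream and had a fold of 5.93. An absent peak does not mean absent CREBBP. The list holds peaks with a p-value of 0.05 or less, and at the backgrounds solved for the other 3 gene starts and the second WDR74 peak, 9.24 to 12.9 fragments, that takes at least 14 to 19 fragments. The background at SNHG12 itself cannot be read from the list.

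By CREBBP fragments the order was WDR74 start (144), GAS5 start (29), SNHG1 start (24), the second WDR74 peak (20) and the peaks outside H3K27ac regions at SNHG1 and GAS5 (10 each). The WDR74 start was picked for its size, so its place in this order is no finding. The intervals of GAS5, SNHG1 and the second WDR74 peak overlapped each other. Overlap does not show that these 3 are equal, and their differences were not tested. Those of the 2 peaks with 10 fragments overlapped SNHG1 and the second WDR74 peak but not GAS5.

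**Figure D2:**
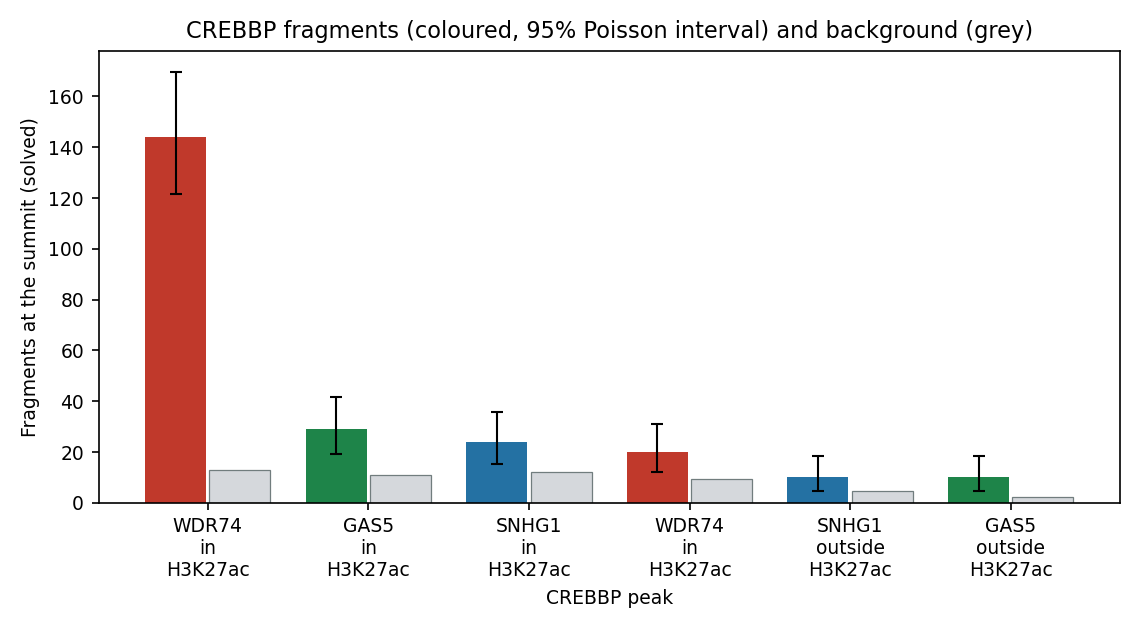
Fragments at the summit solved from the authors' fold and p-value (coloured bars, error bars are exact Poisson 95% intervals) and the background there (grey bars) for the 6 CREBBP peaks of the loci, labelled by gene and by whether the peak lies in an H3K27ac region. The WDR74 start stands at 144 fragments over 12.9, and the other 5 peaks have 10 to 29 over 2.29 to 12.01.

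Of the 6 CREBBP peaks 4 lay in an H3K27ac region, and 5.06% of the whole list did. The regions were those at the starts of WDR74, SNHG1 and GAS5. A q of 0.05 or less was reached by 2 of the 6 peaks, the starts of WDR74 and GAS5, where 1.81% of all CREBBP peaks and 20.2% of those in H3K27ac regions reached it. Seen from the mark, 3 of the 6 H3K27ac regions held a CREBBP peak, close to the 49.0% of all regions, and 2 held a peak of that q, against 11.4% of all. The WDR74 peak that was picked for its size is in each of these counts, so they do not test the loci against the list. Wider regions held CREBBP more often. The WDR74 and SNHG1 start regions were in the widest decile of the list, where 84.6% held a CREBBP peak and 33.0% held a peak with a q of 0.05 or less. The GAS5 start region and the longer SNHG12 region were in the decile below, where these shares were 68.5% and 18.6%. A CREBBP peak was present in 55.1% of regions as wide as the one at the far end of WDR74 and in 24.6% of those as narrow as the upstream SNHG12 region.

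H3K27ac covered 16.3 kb of the 62.8 kb in the 4 windows, 25.9%, and 1.12% of the chromosomes. The share was 30.9% at WDR74, 27.5% at SNHG1, 22.6% at SNHG12 and 21.0% at GAS5. Over all bins of 15 kb, about the length of a window, 8.57% held an H3K27ac region, 60.3% held a CREBBP peak and 1.06% held a CREBBP peak with a q of 0.05 or less inside an H3K27ac region. The corresponding counts here were 4, 3 and 2 of the 4 windows. Each includes the WDR74 window, which was picked for its CREBBP peak. The bins include stretches without genes, so they describe the lists and not other promoters.

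**Figure D3:**
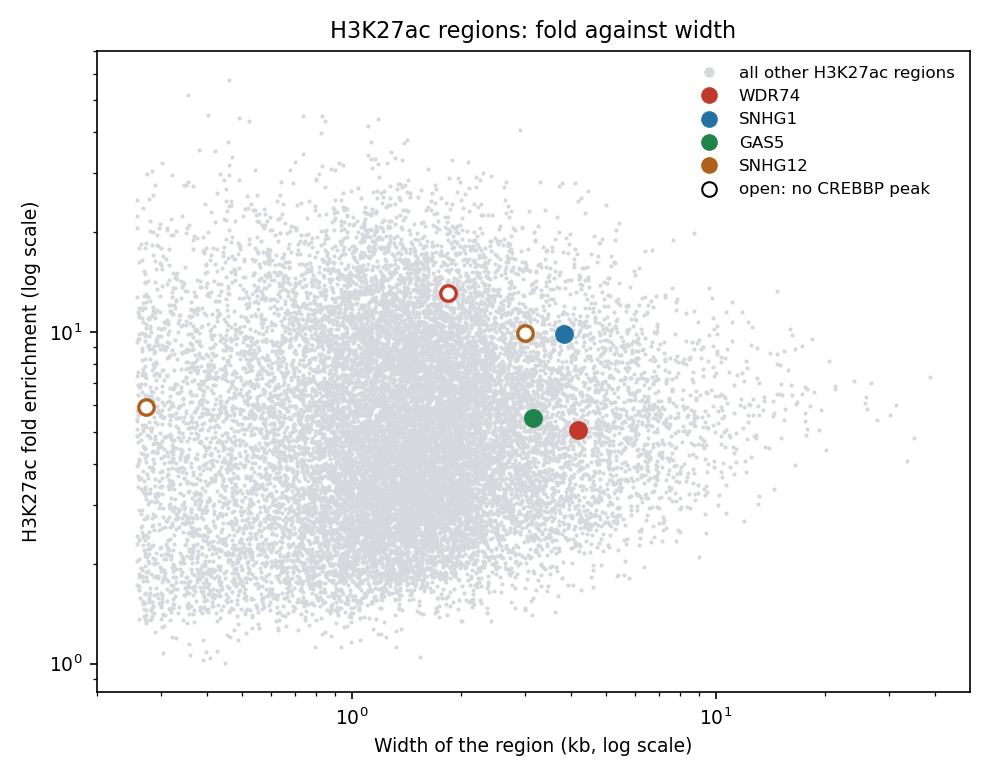
H3K27ac fold enrichment against region width in kb, both on log scales, for all 18263 regions (grey) and the 6 of the loci (coloured by gene; open circles hold no CREBBP peak). The regions at the starts of WDR74, SNHG1 and GAS5 are 3148 to 4175 bp wide and hold CREBBP peaks, and the open circles include the highest fold of the 6, 13.1.

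Among peaks on a like background the WDR74 start, which was picked for its fold, had the most fragments. The CREBBP peaks that lay in H3K27ac regions with a background of 9 to 13 fragments numbered 2565, and their median was 22 fragments (interquartile range 19 to 26). The range holds the backgrounds of the member peaks in H3K27ac regions, 9.24 to 12.9. WDR74 had the most fragments, 144, and the next peak had 126. On a like background fold and fragments largely go together, though not strictly. The next peak, with 126 fragments over a background of 10.2, had the larger fold, 11.4. The WDR74 locus was picked for its fold, so its place by fragments is no finding. The GAS5 start with 29 was reached or passed by 17.7% of these peaks, the SNHG1 start with 24 by 40.7% and the second WDR74 peak with 20 by 71.0%. GAS5 was thus above the upper quartile, and SNHG1 and the second WDR74 peak were within the middle of the range.

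Peaks with so many fragments mostly stood on far higher backgrounds. Of 173 CREBBP peaks with at least 100 fragments, 25 lay in H3K27ac regions, and the median background of the 173 was 143. A background under 20 was found at 4 of them, all in H3K27ac regions. These were the WDR74 start, chr22:23277653-23278286 with 138 fragments over 18.5, chr14:106327709-106329414 with 126 over 10.2 and chr7:142505964-142507231 with 105 over 12.9. The limits of 100 and 20 were chosen after the values were seen.

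**Figure D4:**
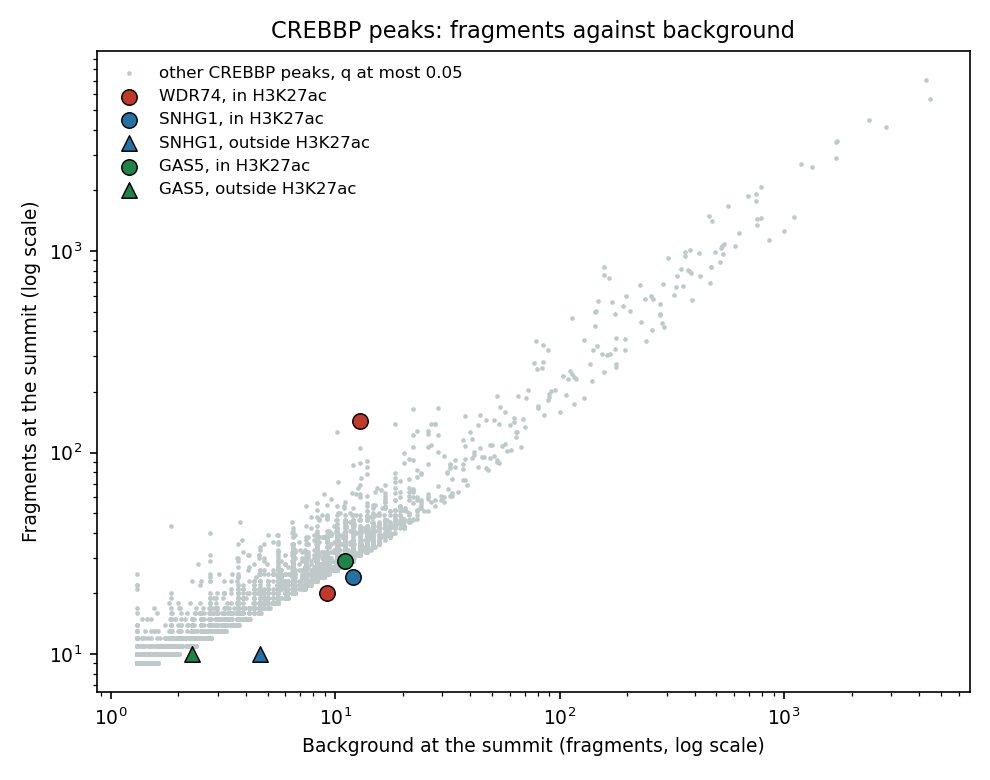
Fragments against background at the summit, both on log scales, for CREBBP peaks with a q of 0.05 or less (grey) and the 6 peaks of the loci (circles in H3K27ac regions, triangles outside). The WDR74 start, which was picked for its fold, lies above most grey points, with 144 fragments at a background of 12.9. Peaks elsewhere with 126 over 10.2 and 105 over 12.9 lie near it. The GAS5 start, at 29 and 11.1, lies just inside the lower edge of the grey points, which the q limit sets.

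The 3 peaks in other H3K27ac regions that were most like the WDR74 start, by the distance in log2 fold and log2 fragments, were on chromosomes 14, 22 and 1. The closest, at distance 0.232, was the chromosome 14 peak just named, with a fold of 11.4 in a region of 3603 bp and H3K27ac fold 10.5. The chromosome 22 peak, at 0.548, had a fold of 7.14 in a region of 38832 bp. The third, chr1:16839979-16841018, at 0.573, had a fold of 7.16 and 165 fragments over 22.2, and its H3K27ac region of 1865 bp had a fold of 4.76, close to that at the WDR74 start.

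Around the WDR74 start, which was picked for its size, no other CREBBP peak came near it in fragments. Within 1 Mb of its summit lay 154 other CREBBP peaks with a median of 5 fragments and at most 31. Only 3 of these had a q of 0.05 or less, with at most 29 fragments, and the nearest was 176 kb away with a fold of 2.55.

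The position of the CREBBP summits within their H3K27ac regions varied. The WDR74 start summit lay 1116 bp from the upstream edge of its region and the GAS5 start summit 710 bp from that edge, on the side of the gene start in each case. The SNHG1 summit lay at 51.2% of its region's width, about the middle.

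Just outside the windows were few intervals. The nearest CREBBP peak beyond the GAS5 window was 926 bp away, chr1:173826685-173827112, with 8 fragments, a fold of 3.10 and no H3K27ac region. The nearest H3K27ac region on that chromosome beyond the GAS5 window, chr1:173792515-173794929, was 33.1 kb away, 2415 bp wide and had a fold of 12.9. Beyond the SNHG12 window an H3K27ac region 703 bp wide, of fold 2.80, lay 4.24 kb away. The WDR74 and SNHG1 windows are 178 bp apart, so that the nearest intervals outside each belong to the other.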

How the data were processed

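The tools fastp, Bowtie2, STAR and MACS2 and the build hg19 are named, per the submitters' processing notes. What each tool did, with which settings and control, and whether libraries were pooled is not given in the sources used here. The authors deposited narrow CREBBP peaks and broad H3K27ac regions with a fold enrichment (a ratio), −log10 p and −log10 q for each, taken as means over a region in the H3K27ac list. The deposited CREBBP list also gives each summit, and its lowest −log10 p is 1.30. Intervals off chromosomes 1 to 22 and X (128 in the CREBBP list, 17 in the other) were dropped. Overlap means at least 1 shared bp. Positions count from 1. Fragments n and background b were solved from fold = (n + 1)/(b + 1) and p as the upper Poisson tail, and matched the deposited −log10 p within 0.001 for 99.99% of peaks. On simulated data made by this formula 1977 of 1977 numbers were recovered. The text names every interval of the 4 windows, the nearest outside and the 3 most alike peaks. Members, lists and motifs were chosen with earlier results of these data known. RefSeq sequences were matched by symbol, 4 of 4 members and 27 of 30 other hosts. Computation used scipy 1.17.1, pandas 2.3.3, numpy 2.4.6 and matplotlib 3.10.9 under Python 3.11.15.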

Additional observations from a re-analysis of the deposited data

How the results depend on the processing

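The counts of CREBBP peaks (5 to 7) and H3K27ac regions (5 to 7) in the windows, the H3K27ac-covered length (11.3 to 17.0 kb) and the number of CREBBP peaks in an H3K27ac region (4 throughout) stayed within 1.5 times the values given, with extensions of 0, 2 or 10 kb, and so did the peak counts with the summit alone and the last count with a 50% overlap. With 10 kb the windows of WDR74 and SNHG1 overlap, and 3 windows hold a CREBBP peak with a q of 0.05 or less in an H3K27ac region because the WDR74 peak falls in both. With a q of 0.001 in place of 0.05, 1 CREBBP peak passed, in 1 window, that of WDR74, so the count of 2 rests on the GAS5 peak. The rank of each locus's strongest peak moved with the measure. WDR74 was 5th by fold, also among peaks with a q of 0.05 or less, 36th by q and 135th by fragments. GAS5 was 8734th by fold, 2810th by q and 1481st by fragments, and SNHG1 was 164761st, 17806th and 2661st, with ties. At GAS5 and SNHG1 the peak with the largest fold is not the peak with the most fragments. SNHG12 has no peak to rank. The solved fragments are few, and their intervals cover counting error only. No paired analysis was possible because no group has replicates.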
